A study of Mus musculus with 48 samples.

Results

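The genes described here are the 3 Slit ligands and 3 Robo receptors of the mouse, Slit1 (ENSMUSG00000025020), Slit2 (ENSMUSG00000031558), Slit3 (ENSMUSG00000056427), Robo1 (ENSMUSG00000022883), Robo2 (ENSMUSG00000052516) and Robo3 (ENSMUSG00000032128). They were taken by symbol from a count table of 37620 genes, and all 6 were found, each under 1 Ensembl identifier. Their mRNA was followed through 16 populations of mouse hippocampal neurons, with 3 RNA sequencing libraries per population. Of the populations, 10 were pyramidal cells of CA1: dorsal, intermediate and ventral cells (the long axis), proximal and distal cells (the transverse axis), superficial and deep cells (the radial axis), and cells projecting to the postsubiculum (from dorsal CA1), the amygdala or the nucleus accumbens (both from ventral CA1). The remaining 6 were dorsal and ventral pyramidal cells of CA3, granule cells of the dentate gyrus from its dorsal and its ventral part (dorsal and ventral DG), and CA1 interneurons expressing parvalbumin (PV) or somatostatin (SST). Fluorescent cells were picked by hand from dissected slices. Strain, transgene, age, sex and the means of labelling are not given in the sources used here, and the labels name no treatment and no mutation in any group. Where the proximal, distal, superficial and deep cells lay on the long axis is not stated either.

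Slits are large secreted proteins, and Robos are single-pass receptors of the immunoglobulin superfamily that bind them. Binding usually repels a growing axon or a migrating neuron, through adaptor proteins that act on the actin cytoskeleton, and heparan sulfate proteoglycans help ligand and receptor to meet. Robo3 stands apart in the family: in mammals it has lost high-affinity binding to Slits, it can bind the secreted protein Nell2, and it is best known from commissural axons that cross the midline. In the hippocampus, Slit and Robo proteins are known for guiding axons during development and, in adult tissue, for roles at synapses. RefSeq places Robo1 and Robo2 next to each other on chromosome 16, and Robo3 next to Robo4 on chromosome 9.

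Each library held between 5.12 and 31.98 M reads in genes. Levels are given as CPM (reads relative to the scaled size of the library), as mean ± SD over 3 libraries, and levels of different genes are compared only as FPKM, which is per length. Libraries are numbered 1 to 3 as in the count table. Cell type markers largely followed the labels. The list for CA1 (Fibcd1, Mpped1, Wfs1) summed to at least 422 CPM in every CA1 pyramidal library. In CA3 and DG libraries it summed to at most 97.6 CPM. SST libraries held 108 to 147 CPM of it and PV libraries 95.2 to 138 CPM. The list for CA3 (Iyd, Grik4, Bok) summed to 223 to 257 CPM in dorsal and 106 to 117 CPM in ventral CA3. Outside CA3 it summed to at most 47.4 CPM. Of its genes, Iyd stood at 43.3 to 57.7 CPM in dorsal CA3 but at 0.464 to 0.601 CPM in ventral CA3. The list for CA2 (Rgs14, Amigo2, Pcp4, Map3k15) was highest in ventral CA3, at 120 to 198 CPM, against at most 109 CPM elsewhere. GABAergic markers (7 genes, among them Gad1 and Gad2) summed to 5719 CPM or more in interneurons but were also read in pyramidal libraries, at 212 to 865 CPM in deep CA1, up to 185 CPM in superficial CA1, up to 263 CPM in proximal CA1, up to 113 CPM in postsubiculum-projecting and up to 110 CPM in accumbens-projecting cells. Single libraries carried most of this in proximal CA1 (library 1, Gad1 44.8 CPM) and superficial CA1 (library 3, Gad1 39.5 CPM), and library 2 of postsubiculum-projecting cells held 57.7 CPM of Gad2 and library 3 of accumbens-projecting cells 506 CPM of Sst. In granule cell libraries the 7 GABAergic markers summed to 89.5 to 108 CPM (dorsal DG) and 48.2 to 62.8 CPM (ventral DG). Library 3 of ventral CA3 stood apart from libraries 1 and 2, with 333 CPM of Slit2 against 98.6 and 117 CPM.

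The 3 ligands had different maps. Slit1 and Slit3 were read in all pyramidal and granule cell populations and were low in both interneuron classes, whereas Slit2 ranged from 3.76 CPM (deep CA1) to 411 CPM (amygdala-projecting cells) among the pyramidal populations themselves, and PV cells held it too. Slit3 was the flattest over the 14 populations outside the interneurons, with means from 102 ± 7.79 CPM in distal CA1 to 238 ± 73.6 CPM in amygdala-projecting cells. Across the 16 population means, Slit1 and Slit3 were correlated on the log2(CPM + 1) scale (r = 0.91), while Slit2 had r = 0.05 with Slit1 and 0.13 with Slit3. These are descriptions over 16 points that share the contrast between interneurons and the rest.

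Slit1 was highest in dorsal DG, at 304 ± 54.4 CPM, followed by ventral CA3 (228 ± 52 CPM), ventral DG (177 ± 15.5 CPM) and dorsal CA3 (176 ± 31 CPM). Among CA1 populations the means ran from 150 ± 28.7 CPM in intermediate to 53.9 ± 7.27 CPM in postsubiculum-projecting cells. Interneurons came last, with 7.87 ± 2.05 CPM in SST and 2.33 ± 1.67 CPM in PV cells. In this order of means, 11 of the 15 neighbouring pairs had overlapping library ranges. The gaps lay between superficial and ventral CA1, between distal CA1 and postsubiculum-projecting cells, and on either side of the SST cells. Populations further along the order could still overlap. Proximal CA1 library 1 (141 CPM) lay within the superficial range (139 to 144 CPM). Accumbens-projecting library 3 (60 CPM) lay within the postsubiculum-projecting range (46.4 to 60.9 CPM).

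Slit2 had the widest span of mean CPM among the ligands. Its highest means were in amygdala-projecting cells (411 ± 159 CPM), dorsal CA3 (337 ± 42.5 CPM) and accumbens-projecting cells (309 ± 117 CPM), then ventral CA3 (183 ± 130 CPM), ventral CA1 (169 ± 31.3 CPM) and PV cells (135 ± 32.8 CPM). Next came ventral DG (93.2 ± 11.7 CPM) and dorsal DG (44.1 ± 32.1 CPM). The other 7 CA1 populations and the SST cells all had means of 24.6 CPM or less, down to 3.76 ± 0.927 CPM in deep CA1. Neighbours in this order overlapped in 13 of 15 pairs, with gaps only between PV cells and ventral DG and between ventral and dorsal DG. Further up the order, ventral CA3 library 1 (98.6 CPM) still lay within the ventral DG range (84.4 to 106 CPM). The RefSeq promoter window of Slit2 (250 bases before to 50 after the gene's start, build GRCm38.p6, chr5:47982905-47983204, + strand) is shown because Slit2 separated the CA1 poles more than the other ligands did. Capitals mark the match to TATAAA, which begins 28 bases before the start.
Slit2: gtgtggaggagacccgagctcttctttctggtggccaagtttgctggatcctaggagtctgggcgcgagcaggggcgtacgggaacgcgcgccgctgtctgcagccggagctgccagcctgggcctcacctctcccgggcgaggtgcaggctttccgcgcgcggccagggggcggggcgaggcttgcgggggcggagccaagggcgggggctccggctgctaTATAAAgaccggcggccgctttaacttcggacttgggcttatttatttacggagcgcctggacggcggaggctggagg
A TATAAA match on either strand was found in 13.6% of the 32851 windows of this length, and among the members with a window only Slit2 had one. Its window also held 3 matches to GGGCGG, a motif in 35.7% of windows, and was 68% G and C against a median of 52.7%. Such matches describe letters and not binding.

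Slit2 and Slit3 share a feature that Slit1 lacks: per RefSeq, Slit2 contains the microRNA gene Mir218-1 and Slit3 contains Mir218-2. Both give the same mature strand, mmu-miR-218-5p, shown here because the host genes differed so much in pattern. Capitals mark its seed, bases 2 to 8.
mmu-miR-218-5p: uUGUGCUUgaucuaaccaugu
The libraries did not measure mature microRNAs, so no level of it is given.

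Slit3 showed the fewest gaps of the ligands: 14 of 15 neighbouring pairs overlapped, and the exception was the drop from distal CA1 (102 ± 7.79 CPM) to PV cells at 8.42 ± 8.15 CPM, with SST cells at 5.43 ± 3.02 CPM. Per length, Slit3 was the most abundant ligand in dorsal CA1 (55.1 ± 4.94 FPKM, against 35.9 ± 6.91 for Slit1 and 5.15 ± 2.44 for Slit2) and held 46.6% or more of the summed Slit FPKM in each of the CA1 populations apart from ventral, amygdala-projecting and accumbens-projecting cells. In those 3 the leading ligand was Slit2, with 43.5%, 61.8% and 61.2% of the sum, and in dorsal CA3 it made up 64.3%. Slit1 led only in dorsal DG, at 103 ± 14.3 FPKM or 47.3% of the sum. PV cells held 50.7 ± 19.3 FPKM of Slit2, which was 91.7% of their Slit FPKM.

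**Figure D1:**
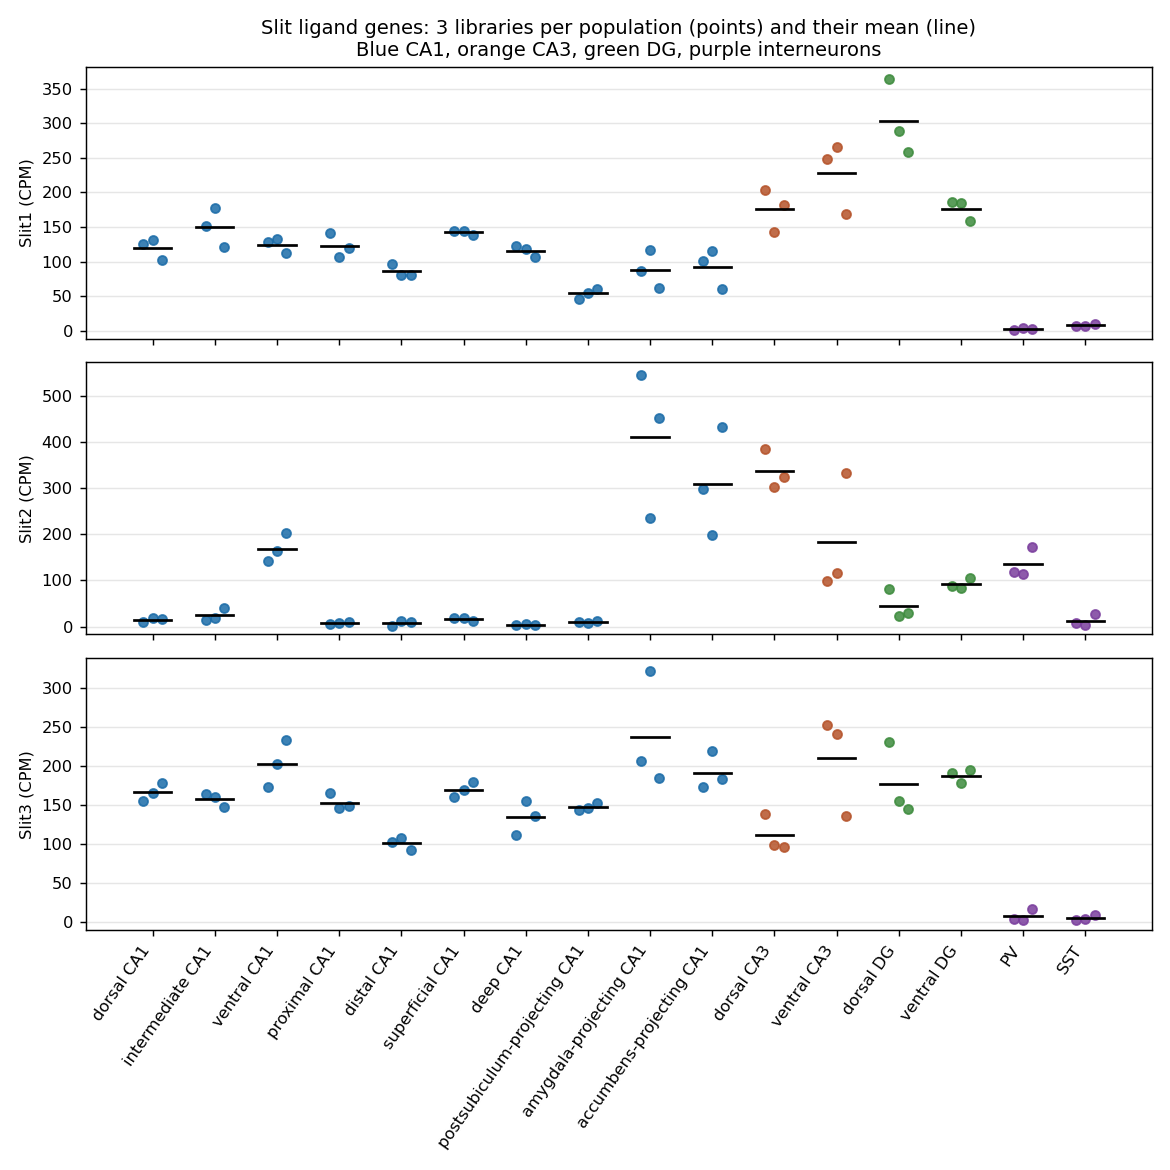
CPM of Slit1, Slit2 and Slit3 (vertical axes, linear, own scale per gene) in the 16 populations along the horizontal axis; points are single libraries, 3 per population, and black lines their means. Slit1 and Slit3 fall to near 0 only in PV and SST cells, whereas Slit2 is low in 7 of the 10 CA1 populations and high in ventral CA1, in cells projecting to the amygdala or accumbens, in CA3 and in PV cells.

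Robo1 was foremost a CA3 transcript. Dorsal CA3 held 401 ± 23.2 CPM and ventral CA3 230 ± 65.8 CPM, and each was separated from the next population in the order. Further down, however, SST library 3 at 184 CPM lay above ventral CA3 library 1 at 181 CPM. PV and SST cells followed with 154 ± 19.2 and 154 ± 26.8 CPM. CA1 populations spanned 58.4 ± 8.97 CPM (distal) to 128 ± 6.51 CPM (intermediate), and granule cells were lowest, at 35 ± 5.83 CPM dorsally against 21.8 ± 3.38 CPM ventrally. The order had 10 overlapping pairs among 15 neighbours, the fewest of the 6 genes.

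Robo2 was read in every population, and no neighbouring pair in its order was separated (15 of 15 overlapped). SST cells (236 ± 81.1 CPM), superficial CA1 (229 ± 12.6 CPM), postsubiculum-projecting cells (214 ± 7.62 CPM), dorsal CA3 (212 ± 6.37 CPM) and dorsal CA1 (212 ± 26.4 CPM) led it. At the other end were accumbens-projecting cells (78.2 ± 33.9 CPM), amygdala-projecting cells (73.8 ± 26.7 CPM) and PV cells (54.5 ± 15 CPM). Within each dorsal and ventral pair the dorsal mean was the higher.

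Robo3 was scarcer and more restricted. Dorsal DG held the most, 78.8 ± 24.2 CPM, apart from all other populations. Proximal CA1 (37.6 ± 8.92 CPM), postsubiculum-projecting cells (33.5 ± 12 CPM), superficial CA1 (24.9 ± 13.9 CPM), dorsal CA1 (19.4 ± 4.93 CPM), distal CA1 (16.3 ± 6.6 CPM), dorsal CA3 (10.1 ± 3.89 CPM) and deep CA1 (7.92 ± 4.1 CPM) formed a continuous middle range. Ventral CA3 had 3.29 ± 0.94 CPM, intermediate CA1 1 ± 1.17 CPM and ventral DG 0.611 ± 0.411 CPM. No library of accumbens-projecting cells had a Robo3 read, where 3 reads would have been 0.173 to 0.215 CPM, ventral CA1 had 1 read in all, SST cells 3 and PV cells 11. In amygdala-projecting cells all 51 reads were in library 3. The RefSeq promoter window of Robo3 (GRCm38.p6, chr9:37433126-37433425, - strand, printed in the gene's direction) is shown beside that of Slit2 because the genes were read at opposite poles of CA1. Capitals mark its TAATTA match, a homeodomain core motif, which begins 101 bases before the start.
Robo3: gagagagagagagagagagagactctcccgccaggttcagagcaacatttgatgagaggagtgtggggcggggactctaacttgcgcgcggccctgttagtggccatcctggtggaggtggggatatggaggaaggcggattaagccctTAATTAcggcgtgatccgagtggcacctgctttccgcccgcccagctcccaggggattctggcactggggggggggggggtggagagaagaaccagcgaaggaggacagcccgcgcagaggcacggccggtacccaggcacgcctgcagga
TAATTA was in 5.29% of the 32851 windows and, of the 5 members with a window, in Robo3 only, and this window had 3 GGGCGG matches but no TATAAA. The E-box pattern CANNTG, present in 72.3% of windows, occurred 2 times in it, 3 times in that of Robo1 and not in those of Slit2 or Slit3. Windows were matched for 5 of the 6 genes, all but Slit1, and Robo2 had 3 of them.

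**Figure D2:**
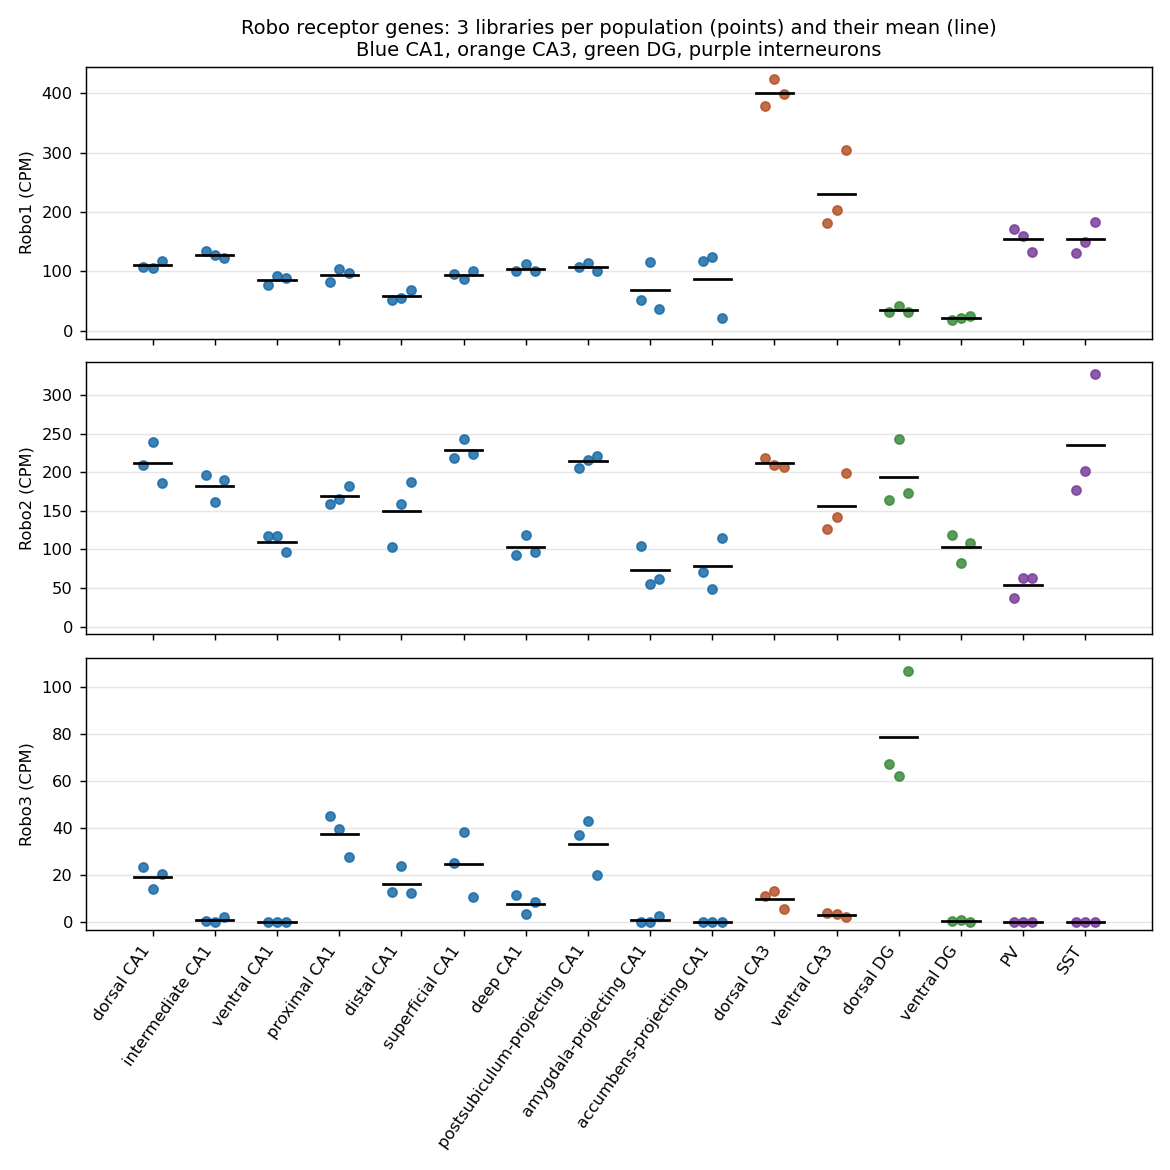
CPM of Robo1, Robo2 and Robo3 (vertical axes, linear, own scale per gene) in the same 16 populations; points are single libraries and black lines means of 3. Robo1 peaks in dorsal CA3 at 401 CPM and is lowest in DG, Robo2 is present throughout, and Robo3 peaks in dorsal DG at 78.8 CPM and is near 0 in ventral CA1, its projection classes, ventral DG and interneurons.

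Per length, the balance of the main receptors differed between regions. The ratio of Robo1 to Robo2 FPKM was 0.99 ± 0.179 in dorsal CA3 and 0.759 ± 0.12 in ventral CA3, against 0.276 ± 0.0292 in dorsal CA1, 0.46 ± 0.0273 in ventral CA1, 0.122 ± 0.0235 in dorsal DG and 0.115 ± 0.0469 in ventral DG. The library ranges of CA3 (0.623 to 1.14), of dorsal, intermediate and ventral CA1 (0.25 to 0.492) and of DG (0.0613 to 0.148) did not overlap. Other CA1 populations went beyond this CA1 range. Deep CA1 ran from 0.3 to 0.704 (mean 0.474 ± 0.207), into the CA3 range. Distal CA1 ran from 0.167 to 0.275 and superficial CA1 from 0.195 to 0.206. PV cells had a ratio of 2.02 ± 0.942, with every library above 1, and SST cells 0.343 ± 0.104. The projection classes of ventral CA1 were the most variable: the ratio was 0.172, 1.02 and 0.38 in the 3 amygdala-projecting libraries and 0.465, 2.3 and 0.0636 in the 3 accumbens-projecting ones. Robo3 reached 25.5 ± 3.2 FPKM in dorsal DG, between Robo1 (6.37 ± 1.2 FPKM) and Robo2 (54.3 ± 17.5 FPKM), and in dorsal CA1 it was the least abundant receptor, at 4.14 ± 1.09 FPKM.

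**Figure D3:**
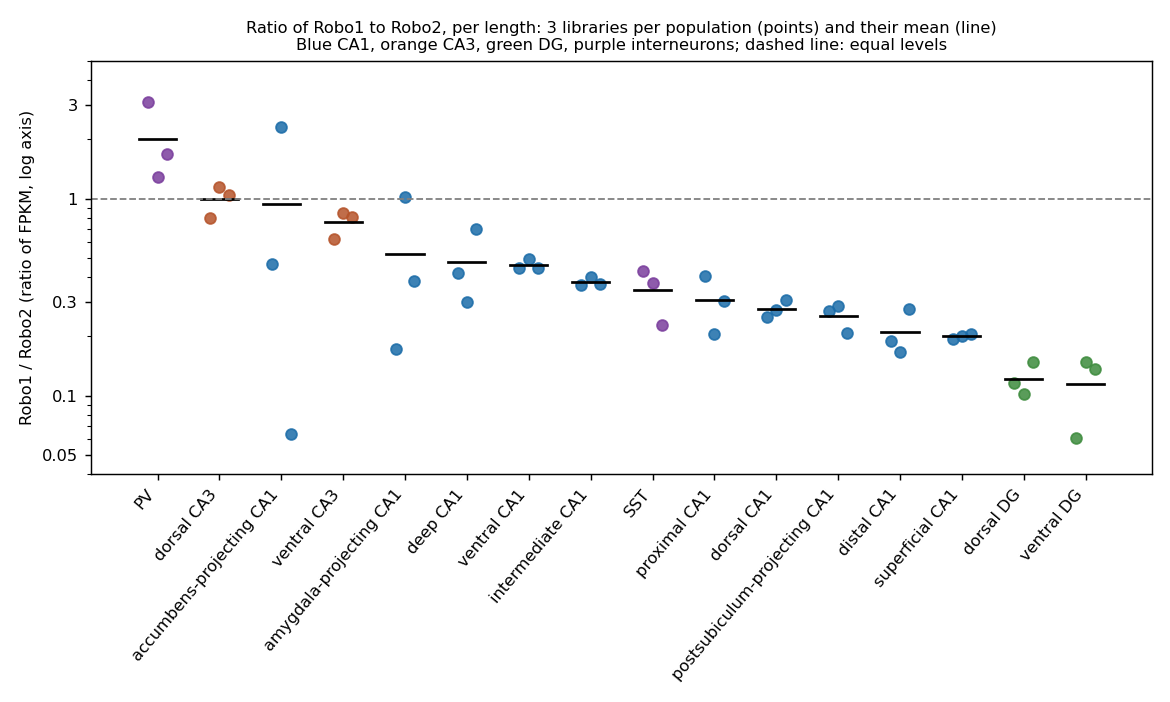
Ratio of Robo1 to Robo2 FPKM (vertical axis, logarithmic) in the 16 populations, ordered by mean; points are single libraries, black lines means of 3, and the dashed line marks equal levels. PV cells lie above the line, dorsal CA3 close to it and DG lowest, and accumbens-projecting libraries spread from 0.0636 to 2.3.

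The 6 genes were tested in 18 comparisons with edgeR, and 37 of 104 tests were called at a Benjamini-Hochberg adjusted p under 0.05 over all genes tested. Of all genes, 0.0231% (amygdala-projecting against accumbens-projecting cells) to 41.2% (interneurons against CA1 pyramidal cells) were called per comparison. Slit2 was called in 8 comparisons, Robo1, Robo2 and Robo3 in 7 each, Slit1 in 6 and Slit3 in 2. Several comparisons share the dorsal or ventral CA1 libraries and so are not independent of each other.

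The long axis of CA1 was the first comparison. Of the 6 genes, 3 were called between dorsal and ventral cells, where 15.1% of the 12149 genes tested were called. Slit2 stood at 9.65, 18 and 15.5 CPM in dorsal, 14.3, 18.7 and 40.8 CPM in intermediate and 141, 163 and 203 CPM in ventral libraries. The ventral libraries were thus far above the others, while dorsal and intermediate overlapped. The ventral level was 12.2-fold the dorsal one (log2 fold change of dorsal minus ventral -3.61 ± 0.34 SE, adjusted p = 2.21e-06).

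Robo3 ran the other way along CA1. Dorsal libraries held 594, 411 and 457 reads (23.7, 14 and 20.6 CPM), intermediate libraries 5, 0 and 20 reads, and ventral libraries 0, 1 and 0. Every dorsal library was above every other one. The dorsal to ventral ratio of summed reads, scaled for library size, was 423 with a 95% exact binomial interval of 75.8 to 16729, which covers counting error only (edgeR adjusted p = 3.73e-05). Against intermediate cells the dorsal level was 19-fold higher (log2 fold change 4.25 ± 0.8, adjusted p = 0.00306), and without intermediate library 3 the log2 value was 5.9, without library 2 it was 3.62. With limma on log2(FPKM + 0.1) this call was lost (adjusted p = 0.0791).

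Robo2 was also higher dorsally, by 1.84-fold (log2 fold change 0.88 ± 0.14, adjusted p = 0.000146). Its libraries stood at 210, 239 and 186 CPM (dorsal), 196, 161 and 190 CPM (intermediate) and 117, 117 and 96.2 CPM (ventral), so that the ventral ones lay lowest and the others overlapped. Robo1, the second main receptor, had 108, 106 and 118 CPM dorsally against 76.6, 92.4 and 88.2 CPM ventrally, without overlap but with an adjusted p of 0.17. Its highest libraries were intermediate, at 135, 127 and 122 CPM. Slit1 differed by -0.12 ± 0.16 and Slit3 by -0.34 ± 0.13 on the log2 scale between the poles, neither called (adjusted p = 0.715 and 0.0874); Slit3 passed with DESeq2 (adjusted p = 0.049) and without ventral library 1 (adjusted p = 0.0322).

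The calls differed between the steps of the axis. Between dorsal and intermediate cells, where 4.93% of genes were called, Robo3 was the only one of the 6 called. Its fitted value was of similar size in the next step but was not called there (4.25 ± 0.8, then 4.16 ± 1.36, adjusted p = 0.093). Between intermediate and ventral cells, where 5.03% were called, Slit2 (log2 fold change -2.79 ± 0.33, adjusted p = 0.000123), Robo2 (0.71 ± 0.14, adjusted p = 0.00403) and Robo1 (0.56 ± 0.14, adjusted p = 0.0254) were called. The Robo1 call was lost without intermediate library 1, 2 or 3 or ventral library 1 or 3 (adjusted p up to 0.102), with limma and in the fit of all 48 libraries (adjusted p up to 0.816). In the last of these Robo2 was lost too (adjusted p = 0.371). Slit2 became called between dorsal and intermediate cells without intermediate library 1 (log2 -1.07, adjusted p = 0.0386), and Robo3 between intermediate and ventral cells without intermediate library 2 (adjusted p = 0.0106). Without the count filter edgeR called both as well. The adjusted p was 0.00372 for Slit2 in the first step and 0.00426 for Robo3 in the second.

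In CA3, 2 of the 6 genes were called between dorsal and ventral cells, where 4.97% of 15549 genes were. Robo1 stood at 379, 425 and 399 CPM dorsally against 181, 204 and 305 CPM ventrally, with no overlap (log2 fold change 0.81 ± 0.19, adjusted p = 0.0121). Slit3 was higher in ventral cells, at 253, 241 and 136 CPM against 139, 99.2 and 96.8 CPM, and the ranges overlapped (log2 fold change -0.91 ± 0.22, adjusted p = 0.0148). Slit2 was at 385, 303 and 323 CPM in dorsal cells and at 98.6, 117 and 333 CPM in ventral ones (log2 fold change 0.89 ± 0.42, adjusted p = 0.339).

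In both Slit3 and Slit2 the ventral value within the dorsal range was that of library 3. This library also held 325 CPM of Calb2 and 31.3 CPM of Drd2, against at most 121 and 2.88 CPM in the other two. Without it Slit2 was called (log2 fold change 1.65, adjusted p = 0.0123), and Robo1 and Slit3 differed by 1.07 and -1.14. Both calls were lost when dorsal library 2 or ventral library 1 or 2 was left out, and that of Slit3 also without dorsal library 3, with adjusted p up to 0.103. In the fit of all 48 libraries neither was called, limma did not call Slit3 (adjusted p up to 0.199), and limma on log2(FPKM + 0.1) did not call Robo1 (adjusted p up to 0.254). Robo3, at 11.1, 13.4 and 5.79 CPM (dorsal CA3) and 3.97, 3.69 and 2.22 CPM (ventral CA3), did not overlap but missed the threshold (log2 fold change 1.62 ± 0.47, adjusted p = 0.0535). It passed with DESeq2 (adjusted p = 0.00409), without dorsal CA3 library 3 (adjusted p = 0.0446), and without dorsal DG library 1, 2 or 3 or ventral DG library 2 or 3, which share the fit (adjusted p = 0.0409 to 0.0457).

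In granule cells 4 of the 6 genes were called, all higher dorsally, where 19.4% of genes were called. Robo3 was at 67.5, 62.4 and 107 CPM dorsally against 0.558, 1.05 and 0.229 CPM ventrally, 130-fold apart (log2 fold change 7.03 ± 0.61, adjusted p = 1.32e-07, and 7.63 without ventral library 2). No other difference of a member in DG approached this size. Slit1 stood at 364, 289 and 259 CPM against 186, 185 and 159 CPM, Robo2 at 164, 243 and 173 CPM against 119, 82.6 and 109 CPM, and Robo1 at 32, 41.7 and 31.2 CPM against 18.7, 21.4 and 25.4 CPM, none of them overlapping. Their log2 fold changes were 0.8 ± 0.18, 0.92 ± 0.19 and 0.7 ± 0.19 (adjusted p = 0.00448, 0.00205 and 0.0157). The Robo1 call was lost without dorsal library 2 or ventral library 1 or 2 (adjusted p up to 0.0808) and in the fit of all 48 libraries (adjusted p = 0.178). On FPKM, limma did not call Robo2 (adjusted p up to 0.118), and the Slit1 call was lost in the fit of all 48 libraries and with limma without a filter (adjusted p up to 0.0884).

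Slit2 was lower in dorsal than in ventral DG in every library (81.1, 22.8 and 28.6 CPM against 88.7, 84.4 and 106 CPM) but was not called (log2 fold change -1.05 ± 0.43, adjusted p = 0.0891). Without dorsal DG library 1 the log2 value was -1.85 (adjusted p = 0.00366), and without ventral CA3 library 3, which shares the fit, it was also called (adjusted p = 0.032), as it was with DESeq2 (adjusted p = 0.0473).

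The dependence of the long axis on region was tested directly as an interaction. Slit2 differed between CA1 and CA3 (interaction -4.47 ± 0.62 on the log2 scale, adjusted p = 0.000146): its ventral level was the higher in CA1, and in CA3 the dorsal mean was the higher. Without ventral CA3 library 3 this value was -5.24. Robo3 differed too (6.86 ± 1.01, adjusted p = 0.000205), with the dorsal excess larger in CA1 than in CA3. For this gene the fitted value rests on the single read in ventral CA1 and is 9.81 without the library that holds it (ventral CA1 library 2) and 6.23 without ventral library 3, and limma on log2(FPKM + 1) did not call it, with or without a filter (adjusted p up to 0.115). In this test 3.52% of genes were called. Between CA1 and DG, where 9.71% were called, Slit2 (-2.53 ± 0.61, adjusted p = 0.0116) and Slit1 (-0.89 ± 0.26, adjusted p = 0.0335) differed and Robo3 did not pass (1.45 ± 1.2, adjusted p = 0.495). The Robo3 value had the opposite sign with limma on log2(FPKM + 1), at -2.12, and was called there (adjusted p = 0.00315). Without dorsal DG library 1 the Slit2 interaction was -1.73 (adjusted p = 0.0337), and it was not called without a count filter or in the fit of all 48 libraries (adjusted p up to 0.0826). The Slit1 interaction was lost in 9 of 18 omissions: dorsal CA1 library 1 or 3, ventral CA1 library 1 or 2, dorsal CA3 library 3, dorsal DG library 1, or any ventral DG library (adjusted p up to 0.0937), in the fit of all 48 libraries and with limma (adjusted p up to 0.341).

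**Figure D4:**
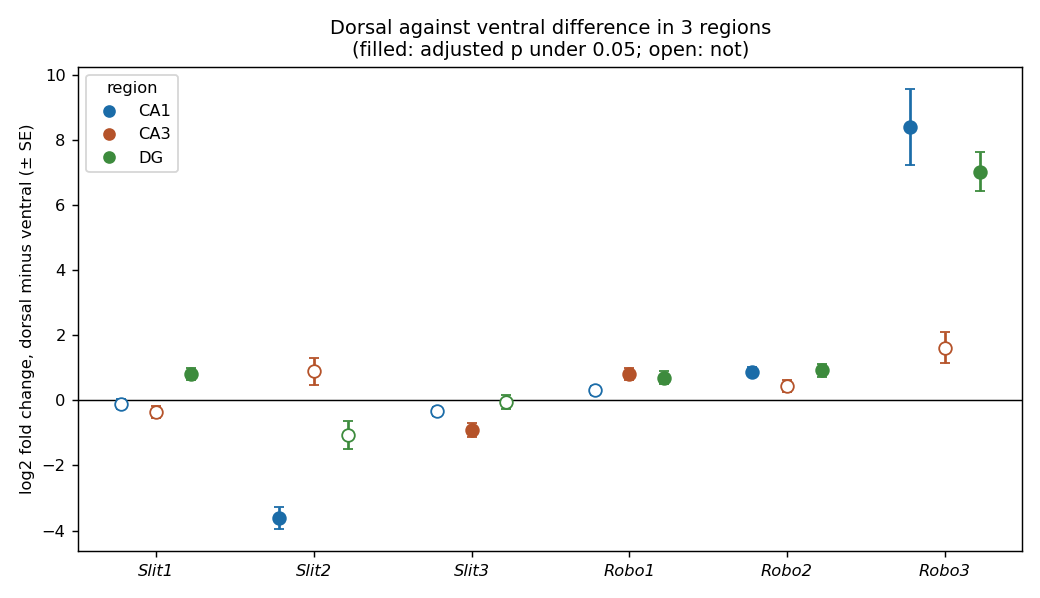
Log2 fold change of dorsal minus ventral cells (vertical axis) for the 6 genes in CA1, CA3 and DG; points are edgeR estimates, bars ± 1 SE, filled points passed an adjusted p of 0.05. Slit2 is below 0 in CA1 (-3.61) and above 0 in CA3 (0.89, open), and Robo3 is above 0 in all 3 regions; its CA1 value rests on 1 ventral read.

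Between regions, averaged over dorsal and ventral cells, Robo1 gave the clearest order. It was lower in CA1 than in CA3 (log2 fold change -1.62 ± 0.14, adjusted p = 2.05e-08), higher in CA1 than in DG (1.83 ± 0.14, adjusted p = 1.65e-09) and 10.9-fold higher in CA3 than in DG (3.45 ± 0.15, adjusted p = 1.98e-13). These compared libraries at 76.6 to 118 CPM in dorsal and ventral CA1, 181 to 425 CPM in CA3 and 18.7 to 41.7 CPM in DG, and the ranges were apart. Amygdala-projecting library 3 (37 CPM) and accumbens-projecting library 3 (20.8 CPM), not part of these contrasts, lay in the DG range. The 6 genes gave 4 calls for CA1 against CA3, 3 for CA1 against DG and 3 for CA3 against DG, where 13.5%, 33.1% and 36.5% of all genes were called.

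Slit1 was lower in CA1 than in CA3 (-0.69 ± 0.13, adjusted p = 0.000645) and than in DG (-0.91 ± 0.13, adjusted p = 1.35e-05). Dorsal and ventral CA1 libraries stood at 102 to 132 CPM and all CA3 and DG libraries at 143 CPM or more. Intermediate CA1 (121 to 178 CPM) and superficial CA1 (139 to 144 CPM), not part of this contrast, reached into the CA3 range. Slit2 was lower in CA1 than in CA3 (-2.31 ± 0.31, adjusted p = 1.87e-05) and higher in CA3 than in DG (1.94 ± 0.31, adjusted p = 5.25e-05). The average hides the poles: dorsal CA1 held 14.4 CPM against 337 CPM in dorsal CA3, but ventral CA1 and ventral CA3 overlapped, at 169 and 183 CPM. Robo3 was called lower in CA1 than in CA3 (-2.48 ± 0.53, adjusted p = 0.00223) and than in DG (-2.76 ± 0.54, adjusted p = 0.000442), although dorsal CA1 at 19.4 ± 4.93 CPM was above dorsal CA3 at 10.1 ± 3.89 CPM. That averaged value rests on ventral CA1 with its single read. Without ventral CA1 library 2 the log2 values were -3.96 and -4.22. The call between CA1 and CA3 was lost in the fit of all 48 libraries and with limma on log2(FPKM + 1), with or without a filter (adjusted p up to 0.737). Robo2 was called between CA3 and DG only (0.36 ± 0.13, adjusted p = 0.0421), a call lost in 8 of 18 omissions, namely those of dorsal CA3 library 1, 2 or 3, ventral CA3 library 3, dorsal DG library 1 or 3 and ventral DG library 2 or 3, and at its weakest without ventral CA3 library 3 (log2 0.26, adjusted p = 0.14). It was lost in 7 of 8 other settings too, all but the one without a count filter (adjusted p up to 0.282). Slit3 was called in none of the 3.

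Across the transverse axis of CA1 no gene of the 6 was called by edgeR, where 1.06% of 12710 genes were. At an unadjusted p under 0.05 there were 4: Slit1, Slit3, Robo1 and Robo3, all higher in proximal cells. The shares of all genes at that unadjusted threshold, called by DESeq2, or without overlap between the libraries, were not computed. Of the 135 genes called by edgeR, 104 were higher and 31 lower in proximal cells. Slit3 stood at 165, 146 and 149 CPM in proximal and 103, 108 and 93.1 CPM in distal libraries (log2 fold change 0.6 ± 0.15, adjusted p = 0.0881), Robo1 at 82.7, 104 and 97.4 CPM against 51.4, 55.3 and 68.5 CPM (0.7 ± 0.2, adjusted p = 0.131), and Robo3 at 45.4, 39.6 and 27.9 CPM against 12.8, 24 and 12.3 CPM (1.22 ± 0.36, adjusted p = 0.146). Slit1 stood at 141, 107 and 120 CPM against 96.8, 80.9 and 81 CPM (0.51 ± 0.18, adjusted p = 0.204). The libraries of these 4 genes did not overlap. DESeq2 called Slit3, Robo1 and Robo3 (adjusted p = 0.0107, 0.0281 and 0.0258) but not Slit1. Of the interneuron markers, Pvalb stood at 80.5 CPM in proximal library 1 and at 10.3 to 14.8 CPM in distal libraries. The 7 GABAergic markers summed to up to 263 CPM in proximal libraries but only to 4.88 to 5.74 CPM in distal ones. Without proximal library 1 the log2 values were 0.53 for Slit3, 0.78 for Robo1, 1.05 for Robo3 and 0.39 for Slit1. None was called by edgeR (adjusted p = 0.236, 0.182, 0.346 and 0.456).

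Across the radial axis, Robo2 was the 1 gene called of the 6, where 2.48% of 12533 genes were. It stood at 219, 243 and 224 CPM in superficial and 92.8, 119 and 97.2 CPM in deep libraries, 2.13-fold higher and without overlap (log2 fold change 1.09 ± 0.14, adjusted p = 0.00263). GABAergic markers differed in the other direction, with a summed level of 212 to 865 CPM in deep and 16 to 185 CPM in superficial libraries, and their part in the result was not tested. Without superficial library 3, which held the 185 CPM, the Robo2 value was 1.12 (adjusted p = 0.0152). That omission left the marker excess of the deep libraries in place, so it could not test the part of these markers. On FPKM, limma did not call Robo2 (adjusted p up to 0.451). Slit2, at 17.5, 17.6 and 11.4 CPM against 2.74, 4.54 and 4 CPM, was higher in each superficial library but not called by edgeR (1.98 ± 0.5, adjusted p = 0.0643), and DESeq2 called it (adjusted p = 0.00365). Robo3 had 25.3, 38.6 and 10.8 CPM against 11.7, 3.57 and 8.48 CPM, with overlap (1.6 ± 0.55, adjusted p = 0.19, and 0.0498 by DESeq2).

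Cells of ventral CA1 that project to the amygdala or the accumbens carried the highest Slit2 levels of any CA1 population. Slit2 was at 545, 235 and 451 CPM in amygdala-projecting libraries and 297, 199 and 432 CPM in accumbens-projecting ones, against 141, 163 and 203 CPM in ventral CA1. All amygdala-projecting libraries were above the ventral ones, and the projection classes overlapped each other widely. It was the 1 member called between amygdala-projecting and ventral cells (log2 fold change 1.29 ± 0.31, adjusted p = 0.0352), where 2.38% of 12981 genes were called. This call was lost when any ventral library, amygdala-projecting library 1 or 3, or accumbens-projecting library 1, which shares the fit, was left out (adjusted p up to 0.212), and also in the fit of all 48 libraries and with limma (adjusted p up to 0.263). For accumbens-projecting against ventral cells Slit2 gave 0.91 ± 0.3 (adjusted p = 0.172), and no member was called by edgeR with the count filter, with 2.04% of genes called and 1 member at an unadjusted p under 0.05. Endothelial markers (5 genes, Kdr among them) summed to 52.9 to 99.8 CPM in amygdala-projecting and 11.9 to 55.2 CPM in accumbens-projecting libraries, against at most 4.73 CPM in ventral CA1. The defining gene Cldn5 had no read in these 3 populations, and the part of the endothelial reads in the Slit2 result was not tested.

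Between both projection classes edgeR called none of the members, had none at an unadjusted p under 0.05, and called 0.0231% of all genes. DESeq2 called none either, and a fit of all 48 libraries called Robo3, on the reads of 1 library. The receptor values were scattered in both groups: Robo1 stood at 51, 116 and 37 CPM in amygdala-projecting and 118, 124 and 20.8 CPM in accumbens-projecting libraries, and Robo2 at 104, 55.1 and 61.8 against 71.3, 48.3 and 115 CPM. The difference of Robo1 was -0.38 ± 0.53 and that of Robo2 -0.11 ± 0.35 on the log2 scale, with SEs larger than the differences. Robo3 was not tested here, having too few reads.

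Cells of dorsal CA1 that project to the postsubiculum had less Slit1 than the dorsal population, 46.4, 54.4 and 60.9 CPM against 126, 131 and 102 CPM. The libraries were apart, and Slit1 was the 1 member called (log2 fold change -1.12 ± 0.18, adjusted p = 0.00295), where 10.8% of 12663 genes were. On FPKM, limma did not call it (adjusted p up to 0.148). Robo3 lay to the other side, at 37.1, 43.3 and 20.1 CPM against 23.7, 14 and 20.6 CPM, with overlap and no call (0.82 ± 0.37, adjusted p = 0.183). The remaining 4 members differed by -0.57 to 0.06 on the log2 scale and were not called.

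Between the interneuron classes 1 ligand and 1 receptor were called, in opposite directions. Slit2 stood at 118, 114 and 173 CPM in PV and at 8.23, 3.13 and 26.7 CPM in SST libraries (log2 fold change 3.38 ± 0.65, adjusted p = 0.0186). Robo2 stood at 37.1, 63.5 and 62.8 CPM in PV and at 177, 202 and 328 CPM in SST libraries (-2.14 ± 0.32, adjusted p = 0.00451). Neither overlapped, and 3.51% of 13633 genes were called. The Slit2 call was lost without SST library 1 (adjusted p = 0.0503) or PV library 1 or 3 (adjusted p = 0.0797 and 0.0798), and without SST library 3 the difference was 4.56. With limma neither Slit2 (adjusted p up to 0.433) nor, without a filter, Robo2 (adjusted p = 0.0651) was called, and Slit2 was not called without a count filter either. Slit1 was lower in PV cells (0.413, 3.44 and 3.13 CPM) than in SST cells (7.32, 6.16 and 10.1 CPM), without overlap and not called (-1.79 ± 0.92, adjusted p = 0.393), but it was called in the fit of all 48 libraries (adjusted p = 0.000172). Robo1 differed by -0.02 ± 0.23. PV libraries also held Sst, at 249 to 952 CPM against 3652 to 6783 CPM in SST libraries, and SST libraries held Pvalb at 1.6 to 55.4 CPM against 316 to 381 CPM. Oligodendrocyte markers (4 genes) summed to 34.7 to 663 CPM in SST and at most 19.1 CPM in PV libraries, and microglial markers (5 genes) to 19.2 to 53 CPM and at most 5.29 CPM. Their part in the results was not tested.

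Set against the mean of dorsal and ventral CA1 pyramidal cells, interneurons held far less Slit1 and Slit3. Slit1 was at 0.413 to 10.1 CPM in the 6 interneuron libraries and at 102 to 132 CPM in the 6 pyramidal ones, a 29.2-fold difference (log2 fold change -4.87 ± 0.36, adjusted p = 1.58e-08). Slit3 was at 2.65 to 17.7 CPM against 156 to 233 CPM (-4.8 ± 0.43, adjusted p = 5.38e-07). Pyramidal markers (Slc17a7, Neurod6, Neurod2, Camk2a) summed to 144 to 376 CPM in interneuron and 2759 to 4013 CPM in pyramidal libraries. Robo1 was the receptor that interneurons held more of, at 131 to 184 CPM against 76.6 to 118 CPM (0.63 ± 0.14, adjusted p = 0.00153).

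In this contrast 5 of 6 members were called, among 41.2% of 15099 genes. The calls of Robo3 (-3.48 ± 1.25, adjusted p = 0.0345) and Robo2 (-0.46 ± 0.18, adjusted p = 0.0482) were the weakest. For Robo3, ventral CA1 was as empty as the interneurons, and the call was lost without dorsal CA1 library 1 or 3 (adjusted p = 0.0565 and 0.0527) or ventral CA1 library 2 (log2 -1.89, adjusted p = 0.959). The Robo2 average joins SST cells near the dorsal CA1 level to PV cells below the ventral one. It was lost in 9 of 12 omissions, which were those of any dorsal or ventral CA1 library, SST library 1 or 2 and PV library 1 (adjusted p up to 0.121), and in 7 of 8 other settings, all but the replicate block (adjusted p up to 0.2). The Robo3 call was lost in the fit of all 48 libraries (adjusted p = 0.121). Slit2 was not called, and without SST library 3 it was (log2 -0.87, adjusted p = 0.00565).

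Other genes of the pathway were followed in 2 lists. The list outside the cell held 15 genes (ligands, coreceptors and heparan sulfate genes) and the list inside the cell 27 (adaptors and other signalling proteins). Between dorsal and ventral CA1, 7 of 12 tested genes outside the cell were called, 3 higher and 4 lower dorsally, with a median log2 fold change of 0.13 against -0.01 over all genes, and inside the cell 5 of 25, 4 higher and 1 lower (median 0.11). Of all genes, 15.1% were called there. Nell2, which encodes the Robo3 ligand, was 1045 ± 36.4 CPM dorsally against 735 ± 36.8 CPM ventrally (log2 fold change 0.45 ± 0.08, adjusted p = 0.000355). Flrt3, a transmembrane protein that can bind Robo1, was higher ventrally (22.2 ± 5.7 against 59.6 ± 17.2 CPM, adjusted p = 0.000632). Prkca, a protein kinase C, fell from 1097 ± 79.4 through 657 ± 31.6 to 289 ± 50.7 CPM from dorsal to ventral (adjusted p = 2.85e-09 between the poles).

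Dcc, the netrin receptor that Robo proteins can silence, went opposite ways in different regions. It was higher in dorsal than in intermediate CA1 (110 ± 13.1 against 59.9 ± 9.37 CPM, adjusted p = 0.0148) and higher in superficial than in deep cells (97.6 ± 12 against 28.5 ± 4.24 CPM, adjusted p = 0.00207). In granule cells it was lower dorsally (15.2 ± 7.73 against 98.4 ± 11.7 CPM, log2 fold change -2.68 ± 0.31, adjusted p = 5.49e-06), and the difference between the CA1 and DG axes was called (3.54 ± 0.42, adjusted p = 1.45e-05). In DG, 5 of 13 tested genes outside the cell and 8 of 27 inside were called, where 19.4% of all genes were. Nell2 was higher dorsally there too (537 ± 89.6 against 330 ± 11.1 CPM, adjusted p = 0.000331).

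In CA3, 2 of 13 genes outside and 3 of 27 inside the cell were called, where 4.97% of all genes were. Gpc1, a glypican that can bind Slits, was 112 ± 23.5 CPM dorsally against 45.3 ± 4.78 CPM ventrally (adjusted p = 0.00736), Srgap3, a GTPase activator that can bind Robo1, 1082 ± 82.1 against 738 ± 73.3 CPM (adjusted p = 0.00384), and Ndfip1, an adaptor of Nedd4-family ubiquitin ligases, 259 ± 30.3 against 132 ± 23.1 CPM (adjusted p = 0.00348). Between regions the lists gave 4 of 13 and 5 of 27 calls for CA1 against CA3, 8 and 13 for CA1 against DG, and 8 and 15 for CA3 against DG. The shares of all genes called in these comparisons were 13.5%, 33.1% and 36.5%. Plxna1, a plexin that can bind a Slit fragment, stood at 12.8 ± 3.27 and 28.3 ± 6.36 CPM in dorsal and ventral DG, against 218 ± 17.6 and 160 ± 48 CPM in dorsal and ventral CA1 (log2 fold change of CA1 minus DG 3.3 ± 0.19, adjusted p = 2.32e-11).

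Flrt3 was lower in CA1 than in CA3 (-2.47 ± 0.21, adjusted p = 2e-08), and Pak1, a kinase downstream of Rac1 and Cdc42, was lower in DG than in CA1 (1.28 ± 0.08, adjusted p = 6.52e-11) and than in CA3 (1.42 ± 0.08, adjusted p = 1.17e-11).

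Postsubiculum-projecting cells, with 1 of 12 genes outside and 6 of 25 inside the cell called against dorsal CA1 (10.8% of all genes), held more Rac1 (0.76 ± 0.09, adjusted p = 0.000375) and Nedd4 (0.52 ± 0.1, adjusted p = 0.00597) and less Cdc42 (-0.78 ± 0.12, adjusted p = 0.00252). Prkca was lower in superficial than in deep cells (-0.61 ± 0.08, adjusted p = 0.00251). Sdc3, a heparan sulfate proteoglycan, was the 1 gene of either list called between proximal and distal cells (91 ± 12 against 28.1 ± 5.05 CPM, adjusted p = 0.0061). In interneurons against CA1 pyramidal cells, 10 of 13 genes outside and 15 of 27 inside the cell were called, 7 and 10 of them lower in interneurons. Of all genes 41.2% were called in this contrast, 3373 higher and 2853 lower in interneurons. Nell2 was at 36.4 ± 5.59 CPM in PV and 41.4 ± 6.03 CPM in SST cells (log2 fold change -4.53 ± 0.13, adjusted p = 5.5e-13), and Ext1, which builds heparan sulfate chains, at 16.4 ± 5.05 and 12.3 ± 4.78 CPM (-3.1 ± 0.22, adjusted p = 1.27e-08). Between PV and SST cells the called genes were Srgap3 and Ndfip2, both higher in PV cells (adjusted p = 0.0114 and 0.0246).

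Genes whose pattern over the 16 population means was most like that of each member were found by Pearson correlation of log2(CPM + 1) among 10208 genes, as a description. For Slit1 they were Nrn1, Synpo and Mink1 (r = 0.953, 0.952 and 0.951), and for Slit3 Arpp21, Cpne6 and Nfix (0.967, 0.964 and 0.958). Slit2 was most like Mest, Myo10 and Syn2 (0.902, 0.901 and 0.886). Among the receptors, Robo1 had Hsp90aa1, Syt11 and Prkaa2 (0.93, 0.907 and 0.892), Robo2 had Cdh8, Ramp2 and Gpbp1 (0.881, 0.856 and 0.823), and Robo3 had Lct, Tpcn1 and Itga7 (0.923, 0.921 and 0.918). The points share libraries with every result above, and for Slit1 and Slit3 they include the gap between interneurons and the rest.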

How the data were processed

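RNA of hand-sorted neurons was amplified with the Ovation RNA-seq v2 kit and sequenced, with ERCC spike-ins, per the labels. The authors deposited raw read counts per Ensembl gene, used for all edgeR and DESeq2 tests, and FPKM values per gene and library, used to compare genes. Tools listed, without roles, in the submitters' processing notes are HTSeq, DESeq2, Cuffdiff 2.1.1 and TopHat2 2.0.6; the builds listed there are mm9 and NCBIM37. Annotation version and strand are not given in the sources used here, so overlapping antisense reads cannot be told apart. Symbols were joined by Ensembl identifier (32897 of 37620 matched), the 92 ERCC and 5 summary lines were left out, and reads outside genes were 20.4% to 46.7% per library. No per-sample column was left unused. From FPKM, 115 genes with failed values were left out.

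Counts were fitted with edgeR 4.0.16 in R 4.3.3 (quasi-likelihood, robust, TMM scaling, filterByExpr, Benjamini-Hochberg over all genes tested), after a check on simulated data. Dorsal, intermediate and ventral CA1 shared a fit of 9 libraries, both ventral projection classes and ventral CA1 another of 9, and dorsal and ventral CA1, CA3 and DG a fit of 18. The interneuron contrast used 12 libraries and the other pairs 6 each. Alternatives were RLE scaling, no filter, a replicate block, a fit of all 48 libraries, DESeq2 1.42.0, limma 3.58.1 on log2(FPKM + 1) or log2(FPKM + 0.1) for genes at 1 FPKM or more in at least 3 libraries or without that filter, and omission of each library. CPM used TMM scaling over all 48 libraries. Amplified reads are not independent molecules, so the interval and the levels given for 3 reads cover counting error only. The series calls the libraries biological replicates, and no label ties them to animals; p-values thus measure the spread between these samples, which may be technical. A difference in bulk levels cannot tell more cells with a transcript from more transcript per cell.

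Members, gene lists, markers and tests were chosen with earlier results of these data known. Named beyond the members are up to 3 called pathway genes of smallest p per comparison, in part, and the 3 genes most like each member with at least 10 CPM in 1 population mean, leaving out predicted, ribosomal, mitochondrial and small RNA genes. Calb2, Drd2 and the marker genes of single libraries were named after their values were seen. Sequences are RefSeq's, of build GRCm38.p6, which differs from the deposited builds; no coordinate of a tested gene was used.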

Additional observations from a re-analysis of the deposited data

Results flagged for a closer look

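For 4 results the dorsal minus ventral difference was itself different between regions, by the edgeR interaction test on the log2 scale. All 6 members were tested in both interactions. Of all genes, 3.52% were called for CA1 minus CA3 and 9.71% for CA1 minus DG. Slit2 gave -4.47 for CA1 minus CA3 (adjusted p = 0.000146) and -2.53 for CA1 minus DG (adjusted p = 0.0116). Robo3 gave 6.86 for CA1 minus CA3 (adjusted p = 0.000205), a fitted value that rests on 1 read in ventral CA1. Slit1 gave -0.89 for CA1 minus DG (adjusted p = 0.0335). The Slit1 call was lost in 9 of 18 omissions, in the fit of all 48 libraries and with limma. That of Slit2 for CA1 minus DG was lost without a count filter and in the fit of all 48 libraries. The Robo3 call was lost with limma on log2(FPKM + 1). With 3 libraries per population, single libraries were not tested as outliers.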

How the results depend on the processing

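The 37 called differences were recomputed under 812 alternative values, and none changed direction: 700 stayed called and 112 did not. All alternatives kept 17 of the 37 calls. For the number of members called per comparison, mainly the larger changes are listed here, and the list is not complete. The number of members called was 0 instead of 1 with limma on log2(FPKM + 0.1) for dorsal against intermediate CA1, and 0 instead of 1 with all 3 limma settings for superficial against deep, amygdala-projecting against ventral and postsubiculum-projecting against dorsal cells. For the CA3 long axis limma gave 1 on log2(FPKM + 1) and 0 on log2(FPKM + 0.1) instead of 2, for the DG axis 2 instead of 4 on log2(FPKM + 1) without a filter, for the CA1 and CA3 interaction 1 instead of 2 on log2(FPKM + 1) with and without the filter, for the CA1 and DG interaction 1 instead of 2 on log2(FPKM + 0.1), and for PV against SST cells 1, 1 and, without a filter, 0 instead of 2. DESeq2 called 3 instead of 0 between proximal and distal and 3 instead of 1 between superficial and deep cells. Smaller changes with DESeq2 were calls gained for Slit3 between the CA1 poles, Robo3 on the CA3 axis and Slit2 on the DG axis. Robo2 calls were lost with it between CA3 and DG and for interneurons against CA1. Without the count filter the numbers were 2 instead of 1 for dorsal against intermediate and for superficial against deep cells, 1 instead of 0 for accumbens-projecting against ventral cells, and 1 instead of 2 for the CA1 and DG interaction and for PV against SST cells. The fit of all 48 libraries gave 1 instead of 3 for intermediate against ventral CA1, 1 instead of 0 between the projection classes, 0 instead of 1 for amygdala-projecting against ventral cells, 0 instead of 2 for the CA3 axis and for the CA1 and DG interaction, 2 instead of 4 for the DG axis, and 3 instead of 5 for interneurons against CA1. That fit also lost the calls of Robo3 between CA1 and CA3 and of Robo2 between CA3 and DG. The cause of these changes was not tested. Leaving out single libraries gave 1 to 2 for dorsal against intermediate CA1, 0 to 1 for amygdala-projecting against ventral cells, 0 to 3 for the CA3 axis, 1 to 2 for the CA1 and DG interaction, 1 to 2 for PV against SST cells and 3 to 6 for interneurons against CA1. The Robo3 interaction of CA1 and DG, not called by edgeR at 1.45, was -2.12 with limma on log2(FPKM + 1) (adjusted p = 0.00315).

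No shared deviation of same-numbered libraries was seen: those of different populations in a fit had correlations of -0.060 to 0.068 in their deviations. These values cannot show whether such libraries share an animal or a batch. With a replicate block, the Robo2 call between CA3 and DG was lost and 2 instead of 3 members were called there; no other count of members changed. Of 17 genes named for a like pattern that have FPKM values, 10 were among the 3 most alike by FPKM too. Depth limits Robo3, where 3 reads were 0.113 to 0.543 CPM in the populations almost without it, and 1 read decided fitted values in ventral CA1.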
